A study of Mus musculus with 12 samples.

Results

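The genes described here are 7 noncoding host genes of small nucleolar RNAs (Gas5, Snhg1, Snhg3, Snhg5, Snhg6, Snhg8 and Snhg12) and the 2 nuclear long noncoding RNAs Malat1 and Neat1. They were found by symbol among the 14323 gene symbols of the count table, and all 9 had a row. RNA came from naïve CD8+ T cells, sorted as TCRβ+CD8+CD62L+CD44- cells from the spleens of 3 wild type mice. Wells coated in 4 ways received 100000 cells of a mouse each for 6 h. The wells were coated with isotype control alone, with 2.5 µg/ml of the anti-LAIR-1 antibody 2C7, with 2.5 µg/ml of the anti-CD3 antibody 145-2C11 together with isotype control, or with anti-CD3 together with anti-LAIR-1. Anti-CD3 triggers the T cell receptor complex, and LAIR-1 is an inhibitory receptor for collagens that 2C7 engages. This gave 12 libraries, 3 per condition and 1 per mouse in each. All were bulk libraries, and the wells without anti-CD3 are called unstimulated. Their labels (iso_iso and iso_2C7) name an isotype in the place of anti-CD3, also for the wells with anti-LAIR-1.

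A snoRNA host gene is transcribed as a long RNA whose introns carry small nucleolar RNAs (snoRNAs). These are cut out, and many of them guide methylation or pseudouridylation of ribosomal RNA in the nucleolus. The spliced exons of the noncoding hosts are exported, loaded onto ribosomes and degraded by nonsense-mediated decay, so that the level of the spliced RNA depends on translation as well as on transcription. Many hosts, like the genes of ribosomal proteins, begin with a stretch of pyrimidines (a 5′ terminal oligopyrimidine tract). Malat1 is a retained nuclear RNA found in nuclear speckles, where splicing factors gather, and Neat1 is the RNA scaffold around which paraspeckles are built.

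The sequence at the start of these genes is shown because 6 of the 7 hosts moved together with anti-CD3. Each line gives 50 bases before and 50 bases from the annotated start, 5′ to 3′, from RefSeq on GRCm38.p6, and capitals mark a run that begins with C and goes on with at least 4 further C or T, where such a run began between 10 bases before and 20 bases after the start. Runs were searched on the transcribed strand.
Gas5, chr1:161035116-161035215, plus strand: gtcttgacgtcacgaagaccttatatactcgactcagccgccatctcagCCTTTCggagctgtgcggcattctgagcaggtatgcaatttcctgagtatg
Snhg1, chr19:8723437-8723536, plus strand: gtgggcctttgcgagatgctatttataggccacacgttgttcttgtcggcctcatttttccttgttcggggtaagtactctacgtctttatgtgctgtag
Snhg3, chr4:132353637-132353736, minus strand: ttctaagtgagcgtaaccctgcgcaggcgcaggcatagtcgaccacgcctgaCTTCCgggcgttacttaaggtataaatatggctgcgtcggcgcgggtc
Snhg5, chr9:88522848-88522947, minus strand: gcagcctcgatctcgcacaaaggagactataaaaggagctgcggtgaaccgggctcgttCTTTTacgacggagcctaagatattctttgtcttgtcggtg
Snhg12, chr4:132308628-132308727, plus strand: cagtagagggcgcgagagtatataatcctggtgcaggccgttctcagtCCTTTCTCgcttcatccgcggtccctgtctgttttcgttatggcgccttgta
Snhg8, chr3:123508287-123508386, minus strand: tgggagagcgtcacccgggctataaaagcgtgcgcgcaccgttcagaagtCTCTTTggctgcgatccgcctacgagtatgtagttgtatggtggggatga
Malat1, chr19:5802623-5802722, minus strand: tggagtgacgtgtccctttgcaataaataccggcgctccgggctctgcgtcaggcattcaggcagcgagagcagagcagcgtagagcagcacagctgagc
Promoters of Snhg6 and Neat1 are named only. Gas5 has another annotated start, without such a run.

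A pyrimidine run by this rule lay at the start of 5 of the 6 hosts with a promoter sequence, Snhg1 being the other. Snhg1 does have a pyrimidine stretch shortly after its start, TTTTTCCTT. It begins with T, and from its first C it is too short for the rule, so it was not counted. The same search found a run in 72.4% of 58 cytosolic ribosomal protein genes, in 45.0% of 7033 genes tested here that had a promoter sequence, and in 42.9% of all 27025 genes of the promoter table. Snhg8, which did not move with the other hosts, had a run of 6 bases, and Malat1 had none. The letters TATAAA stood on the transcribed strand in the 50 bases before the start of Snhg5 and Snhg8, which is 33.3% of these hosts, against 1.44% of the genes tested and 3.15% of all. CACGTG, which reads the same on both strands, was in none of the 300-base promoters of the 6 hosts and in 12.8% of those of the genes tested. These matches describe the letters and were not tested.

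The hosts differ in how many snoRNAs they carry. By the GENCODE M21 annotation (mm10), Gas5 (chr1:161034422-161038539, plus strand) holds 9 genes typed as snoRNAs (1 of them named Mir5117) and Snhg1 (chr19:8723475-8726443, plus strand) holds 8. Snhg12 (chr4:132308623-132311024, plus strand) holds 4, Snhg3 (chr4:132348014-132353686, minus strand) and Snhg5 (chr9:88521050-88522929, minus strand) hold 2 each, and Snhg6 (chr1:9941959-9944118, minus strand) and Snhg8 (chr3:123507552-123508404, minus strand) hold 1 each. Malat1 (chr19:5795690-5802672, minus strand) and Neat1 (chr19:5824708-5845478, minus strand) lie close together and hold none. All 9 are annotated as noncoding. Some share ground with protein-coding genes. The start of Gas5 lies 427 bases from that of Zbtb37 on the other strand, and the 2 genes overlap. Slc3a2, which encodes a chain of an amino acid transporter of activated lymphocytes, starts 106 bases from Snhg1 in the opposite direction. Rcc1, which encodes the nucleotide exchange factor of the nuclear transport GTPase Ran, starts 81 bases from Snhg3 and overlaps it on the same strand, so that reads of Snhg3 and Rcc1 may not be fully separated. Snhg6 overlaps the far end of Mcmdc2 on the other strand.

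Library totals ran from 1781218 to 7725545 counts, lowest in the unstimulated isotype wells (median 2304214) and highest with anti-CD3 and anti-LAIR-1 (median 6204054). The 9 genes took 0.142% to 0.177% of the counts of a library. CD8 T cell markers summed to 2491 to 2925 CPM (counts scaled to library size) unstimulated. They were at 1340 to 1424 CPM with anti-CD3 and isotype and at 1695 to 1896 CPM with anti-CD3 and anti-LAIR-1. Naive T cell markers summed to 3411 to 3779, 376 to 463 and 532 to 666 CPM in the same order. CD4 T cell markers reached at most 4.84 CPM, NK cell markers 1.06 CPM and B cell markers 7.19 to 20.3 CPM. No row for Trac, of the CD8 T cell list, was used here. Summed myeloid markers were at 44.1 to 63.1 CPM unstimulated and 27.5 to 42.5 CPM with anti-CD3, from 3 of the 6 genes of that list, with no row for Lyz2, S100a8 and S100a9 used here. The part of these markers in the results was not tested. A check list of genes that T cells switch on early (Cd69, Il2ra, Nr4a1 and Egr2) rose from 153 to 177 CPM unstimulated to 1391 to 1697 CPM with anti-CD3. Mitochondrial genes took 17.6% to 20.9% of the counts unstimulated and 11.5% to 13.2% with anti-CD3, so that they moved with stimulation. With library sizes computed without mitochondrial genes, Rn45s and Malat1, the same number of the 9 genes, 8, passed with anti-CD3 in isotype wells. In bulk samples, fewer cells of a type and less RNA per cell cannot be told apart.

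To follow the hosts through stimulation, the level of each was compared between conditions in CPM scaled by the TMM method. As the counts are of read ends and were not scaled for transcript length, shares and ratios of genes below are read between conditions only, not as which gene is more abundant. With anti-CD3 in isotype wells, 6 of the 7 hosts rose, Snhg3 the most (4.17-fold) and Gas5 the least (1.18-fold), while Snhg8 did not pass the test. On this scale Malat1 fell 2.13-fold and Neat1 15.0-fold. All changes given are relative to the other genes of a library, and RNA per cell was not measured. Thus 8 of 9 members passed, beside 71.3% of the 8690 genes tested in this comparison, of which 35.3% of all tested were called higher and 36.1% lower. As most genes changed, the count of 8 is read as no result about the members, and the direction and size of each gene follow.

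**Figure D1:**
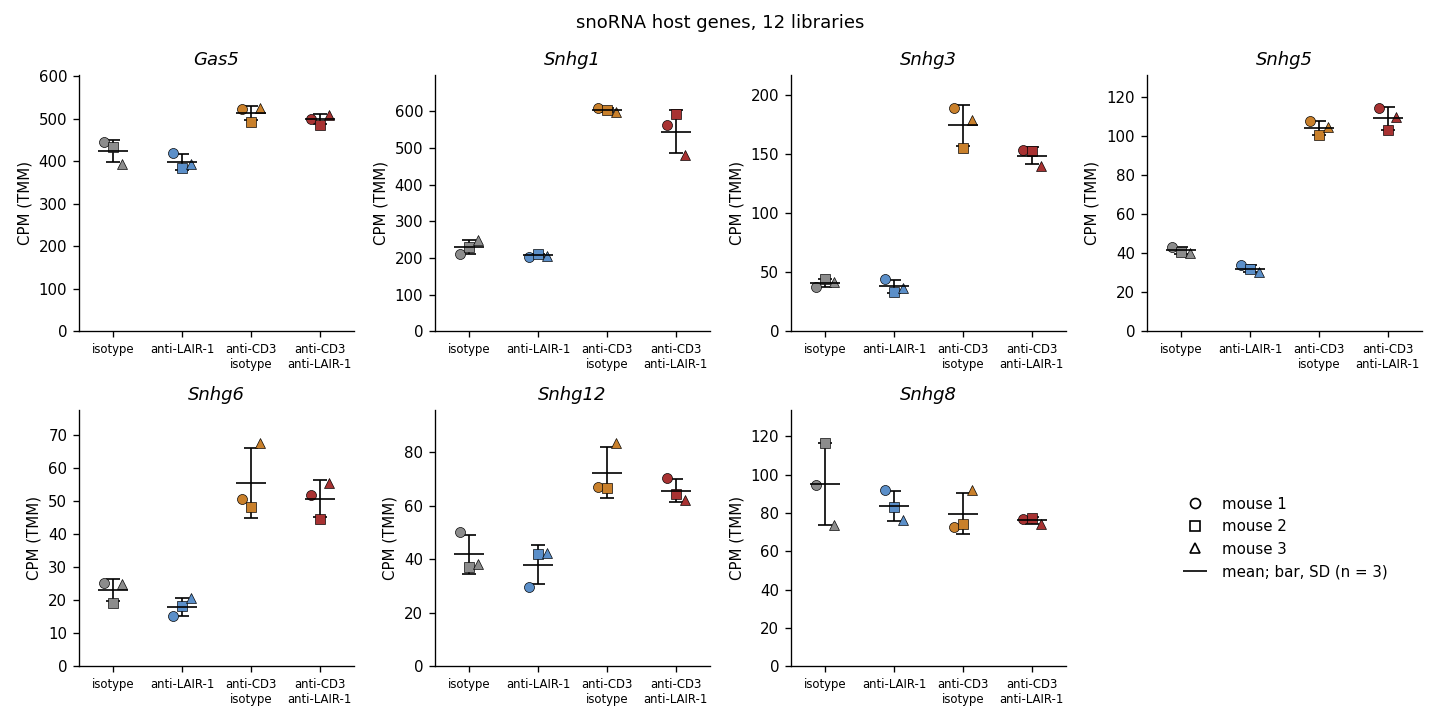
Level of each snoRNA host gene in the 12 libraries, in CPM scaled by TMM (vertical axes, from 0), by condition. Symbols mark the 3 mice, horizontal lines the means and bars the SD (n = 3); for Gas5, Snhg1, Snhg3, Snhg5, Snhg6 and Snhg12 every library with anti-CD3 lies above every unstimulated one, and for Snhg8 the conditions overlap.

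Snhg3, host of the snoRNAs Snora73a and Snora73b, was at 37.3, 44.0 and 41.4 CPM in the unstimulated isotype wells of mice 1, 2 and 3. With anti-CD3 and isotype it was at 189, 155 and 179 CPM. Groups did not overlap. The change of 2.06 on the log2 scale (SE 0.13) had an adjusted p of 7.1e-13 in the quasi-likelihood test of edgeR and was the highest of the 7 hosts. Anti-LAIR-1 wells gave 44.3, 33.6 and 36.9 CPM unstimulated and 153, 153 and 140.3 CPM with anti-CD3, a rise of 1.96 (SE 0.11, adjusted p = 6.95e-12). Rcc1, its neighbour on the same strand, rose from 13.0 ± 0.71 to 109 ± 10.4 CPM (SD, n = 3) with anti-CD3 and isotype, a log2 change of 3.04 (adjusted p = 2.88e-14 by edgeR).

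Snhg1, host of Snord22 and 7 other annotated snoRNAs, was at 211, 230.5 and 249.6 CPM in unstimulated isotype wells. It reached 608, 603 and 598 CPM with anti-CD3 and isotype. The 3 stimulated libraries lay within 10.3 CPM of each other and far above the unstimulated ones, a log2 change of 1.36 (SE 0.09, adjusted p = 3.77e-12 by edgeR). In anti-LAIR-1 wells the levels were 203, 212 and 207 CPM without and 562, 592 and 480.1 CPM with anti-CD3 (log2 change 1.39, SE 0.08, adjusted p = 2.2e-11). Slc3a2, which starts close to Snhg1 in the opposite direction, went from 245 ± 13.4 to 819 ± 37.9 CPM (SD, n = 3) in isotype wells, a log2 change of 1.71 (adjusted p = 3.87e-14 by edgeR).

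Snhg5, host of Snord50a and Snord50b, stood at 43.3, 40.7 and 40.4 CPM unstimulated and at 108, 100.5 and 104 CPM with anti-CD3 in isotype wells. The spread within each condition was small beside the rise of 1.29 on the log2 scale (SE 0.12, adjusted p = 1.92e-09 by edgeR). In anti-LAIR-1 wells it was lower unstimulated, at 34.0, 32.0 and 30.5 CPM, and reached 114, 103 and 109.8 CPM with anti-CD3, a rise of 1.75 (SE 0.11, adjusted p = 2.63e-11).

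Snhg6, host of Snord87, had 46 to 76 counts per library in unstimulated isotype wells. Its levels there were 25.1, 19.1 and 24.8 CPM, against 50.4, 48.3 and 67.5 CPM with anti-CD3. Mouse 3 was the highest of the stimulated libraries, and the groups did not overlap (log2 change 1.24, SE 0.17, adjusted p = 9.82e-07 by edgeR). Anti-LAIR-1 wells gave 15.2, 18.3 and 20.6 CPM unstimulated and 51.8, 44.6 and 55.4 CPM with anti-CD3 (1.48, SE 0.15, adjusted p = 3.29e-08).

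Snhg12, host of Snora16a, Snora44, Snora61 and Snord99, was at 50.2, 37.1 and 38.2 CPM unstimulated and 67.0, 66.9 and 83.5 CPM with anti-CD3 in isotype wells, a smaller rise of 0.75 (SE 0.15, adjusted p = 8.62e-05 by edgeR). With anti-LAIR-1 it went from 29.6, 42.1 and 42.2 CPM to 70.4, 64.3 and 62.2 CPM, a rise of 0.78 (SE 0.13, adjusted p = 2.95e-05). Mouse 1 changed the least of the mice in isotype wells, by 0.41 on the log2 scale, and the most in anti-LAIR-1 wells, by 1.24.

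Gas5, named for its accumulation in growth-arrested cells, was at 445, 433 and 394 CPM in unstimulated isotype wells and at 522, 493 and 524 CPM with anti-CD3. All 3 stimulated libraries were above all 3 unstimulated ones, by a log2 change of 0.24 (SE 0.09, adjusted p = 0.018 by edgeR). In anti-LAIR-1 wells it rose from 418, 383 and 394 to 499, 486 and 509 CPM, by 0.31 (SE 0.07, adjusted p = 0.000563). The call for Gas5 depended on scaling: with upper-quartile normalization, which moved the median change of all genes tested from -0.03 to -0.20, its change in isotype wells was 0.06 (adjusted p = 0.539). Without mouse 3 of the unstimulated isotype wells, which had the lowest level, the change was 0.19 (adjusted p = 0.0815). The share of Gas5 in the summed CPM of the 7 hosts went from 47.3% ± 1.71 unstimulated to 32.0% ± 0.24 with anti-CD3 (SD, n = 3, isotype wells). The sum itself went from 897 ± 30.4 to 1602 ± 55.2 CPM in the same wells.

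Snhg8, host of Snora24, was the exception among the hosts. Its levels were 94.5, 117 and 73.7 CPM unstimulated and 72.5, 74.5 and 92.0 CPM with anti-CD3 in isotype wells. Mice 1 and 2 were lower with anti-CD3 and mouse 3 was higher, the groups overlapped, and the difference of -0.29 (SE 0.14) had an adjusted p of 0.0709 by edgeR. Anti-LAIR-1 wells gave 91.8, 83.1 and 76.1 CPM unstimulated and 76.6, 77.5 and 74.3 CPM with anti-CD3 (-0.14, SE 0.10, adjusted p = 0.208). The difference in isotype wells passed as lower without mouse 3 of the unstimulated wells (-0.43, adjusted p = 0.00701), without mouse 3 of the anti-CD3 wells (-0.39, adjusted p = 0.033) and with upper-quartile normalization (-0.47, adjusted p = 0.00516).

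In anti-LAIR-1 wells the same 8 of 9 genes passed with anti-CD3, in the same directions, beside 72.7% of 9000 genes tested. The comparisons in isotype and in anti-LAIR-1 wells share no library, but both use cells of the same 3 mice. Over the 4 conditions, the means of Gas5, Snhg1, Snhg3, Snhg6 and Snhg12 were highest with anti-CD3 plus isotype, then with anti-CD3 plus anti-LAIR-1, then with isotype alone, and lowest with anti-LAIR-1 alone. The unstimulated conditions overlapped for each of these 5 genes, and the stimulated ones overlapped for Gas5, Snhg6 and Snhg12 but not for Snhg1 and Snhg3. For Snhg5, anti-CD3 with anti-LAIR-1 had the highest mean, overlapping with anti-CD3 and isotype, and all 4 conditions overlapped with their neighbours for Snhg8.

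Some snoRNAs inside the hosts have rows of their own, and the 2 with the most counts are shown, chosen after their counts were seen. Both belong to the C/D box class, of which many members guide methylation. Capitals mark the C box letters TGATGA and the last CTGA, the D box. Sequences are from GENCODE M21 on mm10. The Snord22 sequence holds no TGATGA.
Snord47, inside Gas5, chr1:161038082-161038158, plus strand: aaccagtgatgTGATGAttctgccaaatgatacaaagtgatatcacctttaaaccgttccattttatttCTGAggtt
Snord22, inside Snhg1, chr19:8725866-8725991, plus strand: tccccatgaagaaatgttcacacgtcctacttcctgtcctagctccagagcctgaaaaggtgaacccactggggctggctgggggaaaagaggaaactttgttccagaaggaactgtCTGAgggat

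The row for Snord22 had 6, 3 and 4 counts in unstimulated isotype wells and 36, 55 and 46 counts with anti-CD3. Counts in anti-LAIR-1 wells were 10, 8 and 9 unstimulated and 54, 52 and 30 with anti-CD3. Every stimulated library was above every unstimulated one, and the log2 change in isotype wells was 2.41 (SE 0.41, adjusted p = 1.45e-05 by edgeR). Snord47 had 0 to 4 counts unstimulated and 6 to 17 with anti-CD3 over the 12 libraries and was too low for the test of stimulation. The rows for Snora16a, Snora44, Snora61, Snord99 and Snord87 had at most 7 counts in any library. Library preparation copies polyadenylated ends, so counts on these rows may be of host RNA that keeps its introns as well as of the snoRNAs, and the 2 were not told apart.

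The nuclear RNAs went the other way. Malat1 was at 339, 379.6 and 553 CPM in unstimulated isotype wells and at 198, 206 and 205 CPM with anti-CD3. Unstimulated libraries varied widely, with mouse 3 the highest, whereas the 3 stimulated ones lay close together and below all of them (log2 change -1.09, SE 0.13, adjusted p = 5.64e-08 by edgeR). Before scaling, the counts of Malat1 overlapped, with 1026, 932 and 1028 unstimulated and 655, 974 and 1273 with anti-CD3. Library totals were at most 2957929 in the former and at least 3478294 in the latter, so the fall is one of its share of the counts. In anti-LAIR-1 wells the levels were 633, 418 and 533 CPM unstimulated and 153, 147 and 189 CPM with anti-CD3 (-1.71, SE 0.12, adjusted p = 2.05e-10). Malat1 ends in a triple helix without a poly(A) tail, so that priming on it has to start elsewhere. The longest run of A in its annotated 6983-base transcript was of 12 bases, at position 6674.

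Neat1 showed the largest change of the 9 genes. Unstimulated isotype wells had 142, 192 and 213 CPM, and those with anti-CD3 had 11.2, 12.7 and 12.9 CPM, from 37, 60 and 80 counts. The groups were far apart, a log2 change of -3.90 (SE 0.16, adjusted p = 5.54e-16 by edgeR). Anti-LAIR-1 wells went from 175, 215 and 194 CPM to 21.6, 32.7 and 43.6 CPM, a fall of 6.13-fold (log2 change -2.62, SE 0.16, adjusted p = 2.13e-11). Neat1 is made as a short polyadenylated form, annotated at 3004 bases, and a long form of 20771 bases from the same start. The counts are per gene symbol and did not separate them. As library preparation copies polyadenylated ends, the counts may be mostly of the short form, and a change of the long form was not tested. The ratio of Malat1 to Neat1, in CPM without scaling for length, was 2.32 ± 0.31 in unstimulated isotype wells and 16.6 ± 0.95 once anti-CD3 was added (SD, n = 3). In anti-LAIR-1 wells it was 2.77 ± 0.83 unstimulated and 5.30 ± 1.55 with anti-CD3 (SD, n = 3).

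**Figure D2:**
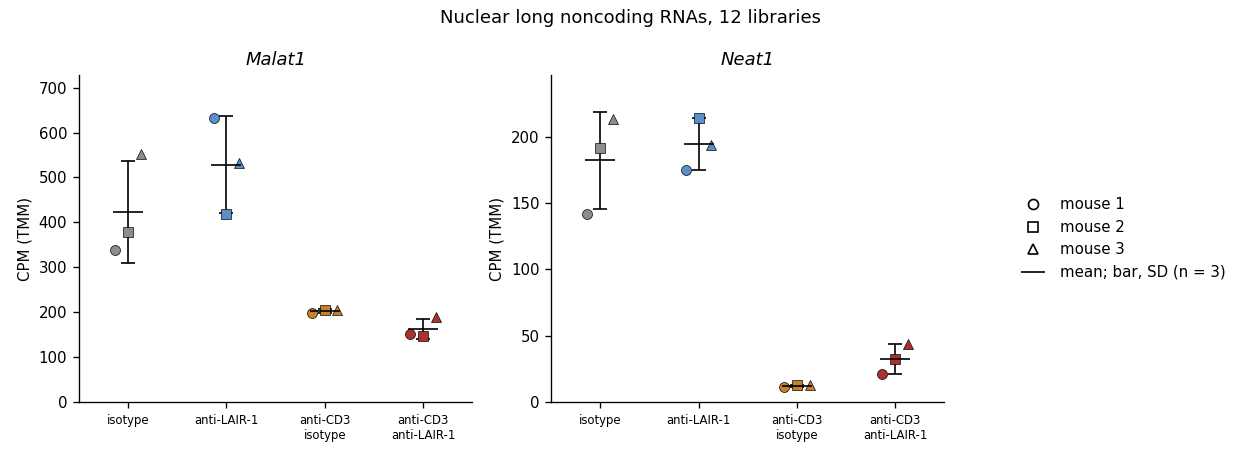
Levels of Malat1 and Neat1 in the 12 libraries, in CPM scaled by TMM (vertical axes, from 0), by condition, with symbols for the 3 mice, lines for means and bars for the SD (n = 3). Both are lower in every library with anti-CD3, and Neat1 is at 11.2 to 12.9 CPM with isotype and 21.6 to 43.6 CPM with anti-LAIR-1.

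To ask what anti-LAIR-1 did during stimulation, the anti-CD3 wells with anti-LAIR-1 were compared with those with isotype, which are also the stimulated libraries of the isotype comparison above. Of the 9 genes, 2 passed, beside 5.76% of the 8800 genes tested (3.9% higher and 1.86% lower). Neat1 was higher and Malat1 was lower, and none of the 7 hosts passed.

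Neat1 was higher with anti-LAIR-1 in each mouse, by 0.92, 1.33 and 1.73 on the log2 scale for mice 1, 2 and 3. The lowest anti-LAIR-1 library (21.6 CPM, 160 counts) was above the highest isotype library (12.9 CPM, 80 counts). The fitted change was 1.37 (SE 0.22, 2.59-fold, adjusted p = 0.000922 by edgeR), and it passed in all 16 other settings, with values from 1.07 to 1.61. Stimulated wells with anti-LAIR-1 still had less Neat1 than any unstimulated well.

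Malat1 was lower with anti-LAIR-1 in each mouse, by 0.37, 0.49 and 0.12 on the log2 scale, and the groups did not overlap (197.7 to 206 CPM against 147 to 189 CPM). The fitted change was -0.33 (SE 0.09, adjusted p = 0.0385 by edgeR). This call was lost without any one of mice 1, 2 and 3 with isotype (adjusted p = 0.0698, 0.103 and 0.0843) or of mice 1 and 2 with anti-LAIR-1 (0.136 and 0.177). The DESeq2 fit that blocks on mouse lost it too (adjusted p = 0.0877).

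For the hosts, the differences between anti-LAIR-1 and isotype ran from -0.23 to 0.06 on the log2 scale, with a median of -0.15 beside 0.00 over all genes tested. Snhg3 was furthest from 0 (-0.23, SE 0.08, unadjusted p = 0.0141 and adjusted p = 0.133 by edgeR), lower in all 3 mice and without overlap of the groups. Snhg1 also did not overlap (-0.15, SE 0.08, adjusted p = 0.286) and was lower in all 3 mice. With Malat1 and Neat1, 4 of the 9 genes had groups without overlap, beside 24% of the genes tested. The SE of the 7 hosts lay between 0.06 and 0.13, and missing the threshold does not show that these genes were equal.

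**Figure D3:**
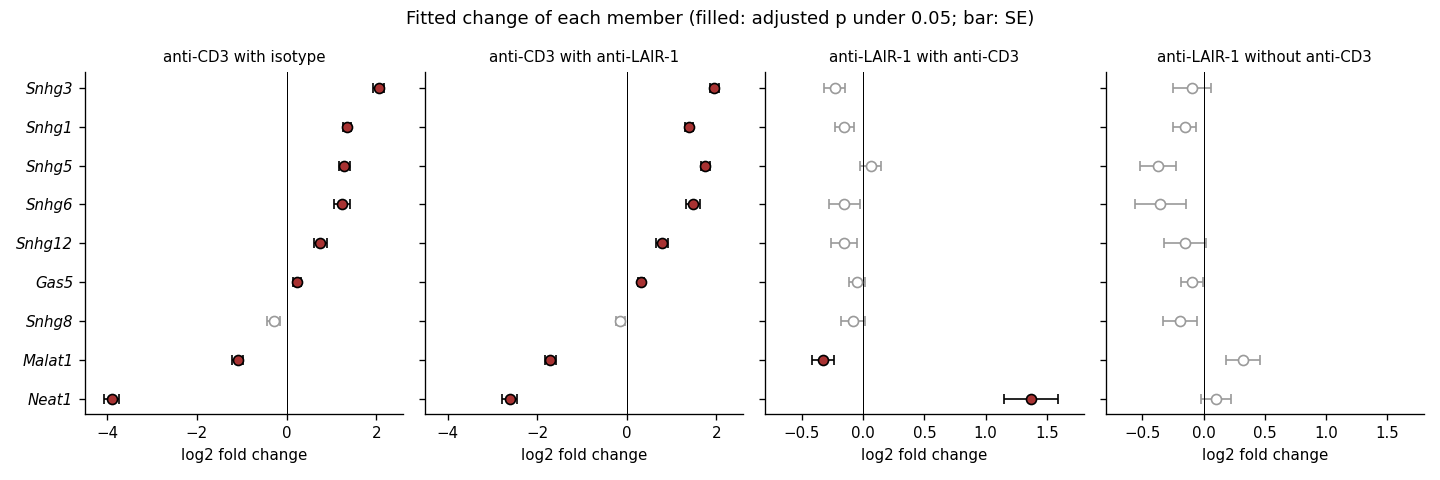
Fitted log2 fold change (horizontal axes) with its SE for the 9 genes in the 4 comparisons of 2 conditions, filled where the adjusted p was under 0.05. The 2 panels on the left span a wider range than the 2 on the right. With anti-CD3 the hosts other than Snhg8 lie to the right and Malat1 and Neat1 to the left, and with anti-LAIR-1 during stimulation only Neat1 and Malat1 are filled.

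Without anti-CD3, none of the 9 genes differed between anti-LAIR-1 and isotype at the threshold (adjusted p = 0.997 for each by edgeR), and 0 of 8770 genes tested passed, or 0% of them. An unadjusted p under 0.05 in edgeR's fit was reached by 384 genes, among them Snhg5 and Malat1, and DESeq2 also called 0 genes with and without the mouse as a block. Differences ran from -0.37 for Snhg5 (SE 0.15) to 0.32 for Malat1 (SE 0.14), and the groups did not overlap for 1 of the 9, Snhg5, beside 9.66% of the genes tested. Malat1 was higher with anti-LAIR-1 by 0.90 in mouse 1 and by 0.14 in mouse 2, and lower by 0.05 in mouse 3. Neat1 differed by 0.10 (SE 0.12). The 7 hosts ran from -0.37 to -0.09, with a median of -0.15 beside -0.002 over all genes tested. Their median was thus about the same as during stimulation.

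Whether anti-LAIR-1 acted differently with and without anti-CD3 was tested as the interaction over all 12 libraries. Neat1 passed, with an interaction of 1.26 on the log2 scale (SE 0.26, adjusted p = 0.00772 by edgeR) that was positive in each of the 3 mice (0.61, 1.17 and 1.86), beside 2.07% of 9223 genes tested (1.82% higher and 0.249% lower). This test uses the libraries of all the comparisons above. It was not called when all libraries were thinned, in a single random draw, to the smallest total (1.00, adjusted p = 0.0945). Malat1 had an interaction of -0.65 (SE 0.20, adjusted p = 0.0943), negative in each mouse (-1.27, -0.63 and -0.06). Blocking on mouse, the interaction of Malat1 passed in edgeR (-0.66, adjusted p = 0.0395) and in DESeq2 (-0.66, adjusted p = 0.0316). Snhg5 had an interaction of 0.44 (SE 0.16, adjusted p = 0.179), positive in each mouse, and the other 6 hosts lay between -0.13 and 0.21.

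**Figure D4:**
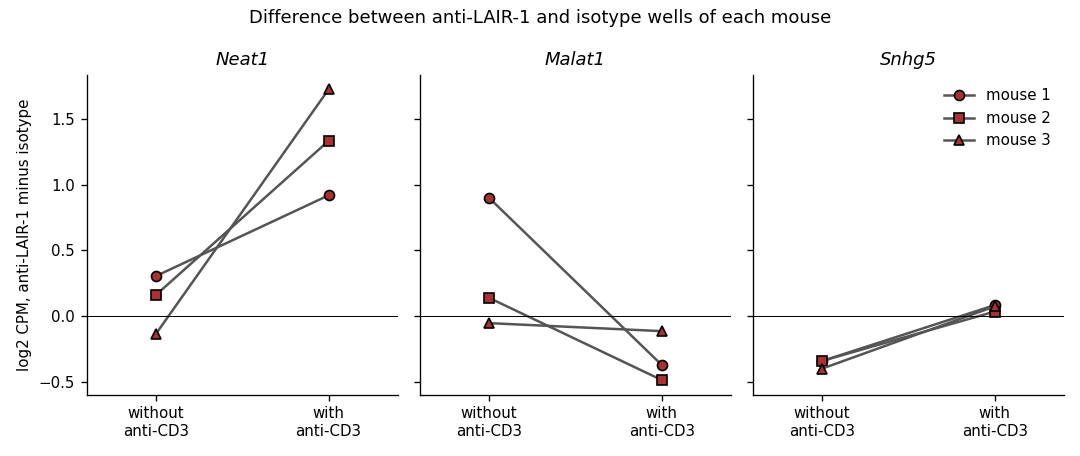
Difference between anti-LAIR-1 and isotype wells of the same mouse, in log2 CPM (vertical axis), without and with anti-CD3, for Neat1, Malat1 and Snhg5; each line is 1 mouse. For Neat1 the 3 mice lie between -0.14 and 0.30 without and between 0.92 and 1.73 with anti-CD3, and Snhg5 is below 0 in every mouse without and above 0 with anti-CD3.

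To place the members among related genes, lists of other hosts, of snoRNA-binding proteins, of nonsense-mediated decay factors and of speckle and paraspeckle proteins were counted in the same fits. Counts here are beside 35.3% of all genes called higher and 36.1% called lower with anti-CD3 in isotype wells, and beside a median change of -0.03 over all genes tested. Lists overlap, as some protein-coding hosts encode snoRNA-binding proteins. Of 17 other noncoding hosts, 9 had a row and 8 were tested. With anti-CD3, 4 of the 8 rose and 0 fell: 1110038B12Rik (2.11), Dancr (1.92), Snhg4 (1.51) and Snhg7 (0.69), with adjusted p values up to 0.00765 by edgeR. The median of the 8 was 0.75. These 8 are from a hand-made list. A wider set took genes around a snoRNA that were not typed as protein coding, leaving out the 7 hosts described. Of the 10 tested, 5 rose and 2 fell, with changes down to -1.18. Those that rose include Cct6a (1.88), which encodes a protein and is also in the short list of 17 protein-coding hosts below. None of these genes passed with anti-LAIR-1 during stimulation.

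The protein-coding hosts of 2 short lists, chosen by hand, are given before the hosts of the whole annotation. All 17 hosts of the list that do not encode ribosomal or translation proteins rose with anti-CD3, with a median of 1.88. They include Rcc1 (3.04), the snoRNA core protein gene Nop58 (3.03), the pseudouridine synthase gene Dkc1 (2.50) and the nucleolin gene Ncl (2.49). Among 26 hosts of the ribosome and translation list, 4 rose and 10 fell, with a median of -0.06. Here the helicase gene Eif4a1 rose the most (2.15), followed by Eif5 (1.23) and Eif4g2 (1.02), all translation initiation factors, and Tpt1 fell (-0.67). Under upper-quartile normalization 16 of 17 and 4 of 26 rose, and 0 and 16 fell. Over every gene of the table with an annotated snoRNA inside it, 84 of 183 tested rose and 43 fell, with a median of 0.27. The protein-coding ones among them, leaving out ribosomal proteins, went both ways, with 71 of 138 higher, 26 lower and a median of 0.45, so that the count of the short list does not hold for such hosts at large. Hosts in this annotation that encode ribosomal proteins had 2 of 28 higher and 15 lower. The difference between these hosts and the noncoding ones was not tested.

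Genes of proteins that bind and assemble snoRNAs were mostly higher. Of 18 tested, 17 were higher and 1 lower with anti-CD3, with a median of 2.27. The largest changes were those of the assembly factor gene Naf1 (3.26), Nop58, the nucleolar phosphoprotein gene Nolc1 (2.92) and the helicase gene Ruvbl1 (2.51). During stimulation anti-LAIR-1 lowered 4 of the 18, beside 1.86% of all genes: Dkc1 (-0.36, adjusted p = 0.00885), Nop58 (-0.34, adjusted p = 0.0109), Nolc1 (-0.33, adjusted p = 0.0236) and Nhp2 (-0.27, adjusted p = 0.019; all by edgeR). Among the 17 protein-coding hosts outside translation, 4 were lower as well: Dkc1 and Nop58 again, Taf1d (-0.40, adjusted p = 0.01) and Ncl (-0.30, adjusted p = 0.0185). None of the genes in either list was higher. The list of 17 was chosen by hand. Over the protein-coding hosts of the whole annotation, leaving out ribosomal proteins, 8 of 145 tested were lower and 1 was higher. Their median was -0.05, and over all genes tested 1.86% were lower and 3.9% higher. The count of the short list thus does not hold for such hosts at large.

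Factors of nonsense-mediated decay, the path that degrades spliced host RNA, were mixed. With anti-CD3, 8 of 18 rose and 3 fell, with a median of 0.33. Those with the largest changes were the exon junction genes Magohb (2.95) and Magoh (1.75), the helicase gene Dhx34 (1.99) and the exonuclease gene Xrn1 (-1.69). Upf3b was the only factor called with anti-LAIR-1 during stimulation (-0.53, adjusted p = 0.0303 by edgeR).

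**Figure D5:**
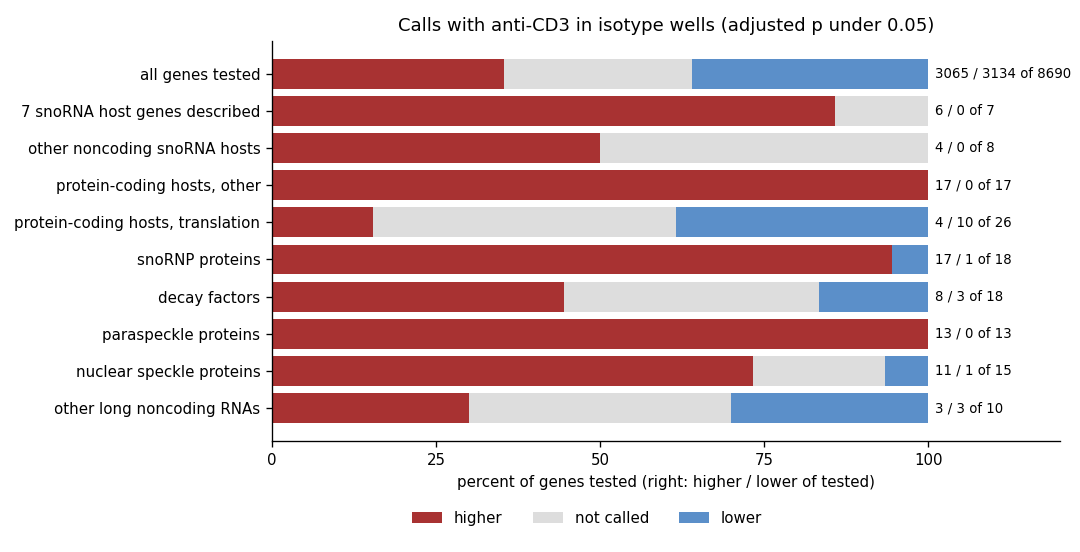
Share of tested genes called higher (red), not called (grey) and called lower (blue) with anti-CD3 in isotype wells, at an adjusted p under 0.05, for all genes tested, the 7 hosts described and 8 lists. Numbers on the right give genes higher and lower of those tested, and the horizontal axis is in percent. The paraspeckle list is entirely red (13 of 13) and the translation hosts are mostly grey and blue (4 higher and 10 lower of 26).

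Genes whose products sit in the same bodies as Malat1 and Neat1 were mostly higher with anti-CD3, where these RNAs were lower. All 13 paraspeckle protein genes tested rose with anti-CD3, with a median of 0.79, among them Sfpq (1.26), Tardbp (1.25) and Srsf10 (1.17). Under upper-quartile normalization 10 of the 13 rose and 0 fell. None of the 13 was called with anti-LAIR-1 during stimulation, where Neat1 was higher (median -0.07). Of 15 nuclear speckle protein genes, 11 rose and 1 fell with anti-CD3, with a median of 0.92, led by the splicing factor genes Srsf2 (1.68), U2af2 (1.67), Srsf7 (1.44) and Srsf1 (1.32). Anti-LAIR-1 during stimulation lowered 2 of the 15, among them Rbm25 (-0.26, adjusted p = 0.04 by edgeR). There, where Malat1 was lower too, all 15 had changes below 0, from -0.56 to -0.01 with a median of -0.11. A link between these genes and the 2 RNAs was not tested.

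Other long noncoding RNAs known from lymphocytes or the nucleus had no common direction. With anti-CD3, 3 of 10 tested rose and 3 fell, with a median of -0.01. Pvt1, neighbour of Myc, rose by 2.49 and Mir17hg, host of a microRNA cluster, by 1.77, while Dleu2 fell by 1.90 and Jpx fell by 1.37 on the log2 scale. During stimulation AW112010 was the only one called with anti-LAIR-1 (0.43, adjusted p = 0.0203 by edgeR). Over all 153 long noncoding genes of the annotation that were tested, leaving out the 9, 32 were higher and 75 lower with anti-CD3, with a median of -0.65. In the same set of genes with anti-LAIR-1 during stimulation, 6 of 161 were higher and 1 was lower (3.73% and 0.62%). Over all genes tested there, 3.9% were higher and 1.86% lower.

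The genes whose pattern over the 12 libraries was most like that of each member are given as a description, by Pearson's r of log2 CPM over 9222 other genes. All points share the split between stimulated and unstimulated wells, so that a high r mostly says that a gene moved with anti-CD3. For Neat1 they were the chemokine receptor gene Cxcr4 (0.995), Capns1 (0.995) and Gramd1a (0.995), and for Malat1 they were Abcb9 (0.972) and Sav1 (0.964). Snhg1 was most like Atf4, a transcription factor gene of amino acid stress (0.997), 2410016O06Rik (0.996) and Cdv3 (0.996). Those of Snhg3 were Utp18 (0.996), Uck2 (0.995) and Ruvbl2 (0.995), and those of Snhg5 were Mafk (0.995), Litaf (0.994) and Sod2 (0.994). Gas5 came nearest to Ythdf1 (0.983), Sdccag3 (0.980) and Atp5k (0.978), Snhg6 to Gpx1 (0.988), Atp6v1f (0.987) and Tmem248 (0.984), and Snhg12 to Prrc2a (0.977), Gatc (0.973) and Edf1 (0.970). The values for Snhg8, led by Mtfr1l (0.892), Mlycd (0.876) and Brat1 (0.850), were lower.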

How the data were processed

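RNA of 12 wells (3 mice, 4 conditions) was sequenced by CEL-seq in an adapted form, which reads near polyadenylated ends. The authors aligned read 2 with BWA MEM to the transcriptome of mm10, dropped reads with several equally good positions and deposited whole-number counts per gene symbol, without normalization. Whether identical molecules were collapsed or strand was used is not given in the sources used here, so that limits cover counting error only: 3 counts were 0.388 to 1.68 CPM. Noncoding genes were kept. Of 14323 symbols, 14273 matched GENCODE M21 or RefSeq.

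In R 4.3.3, edgeR 4.0.16 compared conditions by its two-sided quasi-likelihood F-test after TMM and filterByExpr, and p-values were adjusted over every tested gene by Benjamini-Hochberg (threshold 0.05). All 9 genes passed the filter in all 5 comparisons. SE is the log2 change divided by the root of F. Log2 CPM used a prior count of 2. Same-numbered libraries come from the same mouse, as the labels number the mice. The mean r of their deviations from group means, across genes, was 0.043, against -0.022 between mice. Fits with that block are alternatives, as the study states none. No 2 libraries of a condition were copies. The wells of a mouse are its only samples. The main fits took all libraries as independent, so their p-values measure the spread within conditions, each of 3 mice, without the pairing.

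The members and lists were chosen with earlier results of these data known. Named were the members, the 3 genes most like each, neighbours starting within 2000 bases, and up to 4 called genes per list by size of change (some genes under this rule are not reported here); Snord22, Snord47 and the 5 other snoRNA rows, and genes with 0 counts, were named as parts of a member or of a marker list. Cell type markers were summed. Alternatives were other scalings in edgeR (upper quartile, size factors of DESeq2), DESeq2 1.42.0 with and without the block, edgeR with it, no filter, at least 10 counts in every library, library sizes without mitochondrial genes, Rn45s and Malat1, thinning, all 12 libraries in 1 fit and each library left out. Fits were tested on simulated data.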

Additional observations from a re-analysis of the deposited data

Results flagged for a closer look

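Neat1 was flagged because the effect of anti-LAIR-1 depended on anti-CD3 in the interaction test, with a value of 1.26 on the log2 scale (SE 0.26, adjusted p = 0.00772 by edgeR over 9223 genes). It passed in 20 of 21 other settings, and not in the single draw of thinned libraries (adjusted p = 0.0945).

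Snhg5 was flagged because anti-LAIR-1 wells were lower than isotype wells in all 3 mice without anti-CD3 (by 0.34, 0.34 and 0.40 on the log2 scale) and higher in all 3 mice with anti-CD3 (by 0.08, 0.03 and 0.07). The interaction of 0.44 (SE 0.16) did not pass (adjusted p = 0.179 by edgeR).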

How the results depend on the processing

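With anti-CD3, the number of members called stayed at 7 to 9 of 9 in isotype wells and at 8 in anti-LAIR-1 wells over 16 settings each, and at 0 for anti-LAIR-1 alone. Upper-quartile normalization moved the median change of all genes with anti-CD3 to -0.20 (isotype) and -0.24 (anti-LAIR-1) and the share of calls that were higher from 49.4% to 42.2% and from 50.1% to 40.6%. For anti-LAIR-1 during stimulation, 2 members passed, but 1 in DESeq2 with the replicate block and with all 12 libraries in 1 fit (Malat1, adjusted p = 0.236), and 1 to 2 with each library left out. The share of calls that were higher went from 67.7% to 79.8% in the fit of all 12 libraries. For the interaction, 1 member passed, but 2 with the replicate block in edgeR or DESeq2 and with no filter on low counts (Malat1, adjusted p = 5.91e-05), 0 after thinning, and 1 to 2 with each library left out (Malat1 passed without mouse 3 of the isotype or mouse 2 of the anti-LAIR-1 wells, unstimulated). Pairing by mouse changed no other call of a member. Over all genes, anti-LAIR-1 during stimulation gave 507 calls, but 732 with no filter, 242 in DESeq2 with the block, 285 after thinning and 293 to 427 with libraries left out. Anti-LAIR-1 alone gave 0 calls, but 5 with no filter and 0 to 1 with libraries left out. The interaction gave 191, but 275 with no filter, 109 after thinning and 103 to 186 with libraries left out. Changes of sign came only in differences that passed nowhere. Interactions of Snhg1 (0.00) became -0.0265 with no filter, -0.003 with 10 counts in every library and -0.0017 after thinning, and ran from -0.0628 to 0.0828 with libraries left out. Those of Snhg12 (0.01) became -0.0203 with no filter and ran from -0.17 to 0.13, that of Snhg3 became 0.13 after thinning, and that of Snhg8 ran from -0.0533 to 0.252. With libraries left out, differences with anti-LAIR-1 during stimulation ran from -0.254 to 0.0191 for Snhg6 and from -0.141 to 0.0332 for Snhg8, and without anti-CD3 from -0.241 to 0.0159 for Snhg12 and from -0.0556 to 0.225 for Neat1. Gas5 lost its call in isotype wells also with at least 10 counts in every library (adjusted p = 0.0595) and after thinning (0.0958), and in anti-LAIR-1 wells with the upper quartile (0.189). Snhg8 passed as lower also with at least 10 counts in every library in isotype wells (-0.34, adjusted p = 0.0318) and with the upper quartile in anti-LAIR-1 wells (-0.35, adjusted p = 0.00426). The causes were not tested. Depth limits Neat1 and Snhg6 the most, with 37 and 46 counts in their lowest libraries.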
